A study of Homo sapiens with 12 samples.

Results

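The genes described here lie in a row on the long arm of human chromosome 13, from SUCLA2 through RB1 to TBC1D4, the stretch known as 13q14 to q22. The list held 47 genes of that interval, and 43 of them were measured among 19775 genes in all; PHF11, ALG11, THSD1 and PCDH20 had no probe set of their own. The members were chosen by position and by the difference L3.6pl minus FG in each oxygen state in earlier results of these data. That difference is therefore a description with no test, whereas the response to hypoxia was not part of the choice and was tested. FG and L3.6pl are human pancreatic carcinoma lines with unequal metastatic potential, as the series title has it, and L3.6pl is known as a variant selected in mice for metastasis. The 4 groups were FG in normoxia, FG in hypoxia, L3.6pl in normoxia and L3.6pl in hypoxia, with 3 Affymetrix arrays in each and 12 in all. Hypoxic cultures spent their last 24 h at 1% oxygen, the normoxic cultures were left untreated, and all cells were grown in serum-containing DMEM from frozen stock, typically for 9 days. With 1 line of each kind, a difference between FG and L3.6pl belongs to these lines and not to metastatic tumours in general.

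RB1 encodes the retinoblastoma protein, which binds E2F transcription factors and holds cells before S phase until cyclin-dependent kinases phosphorylate it. Pancreatic ductal carcinomas commonly lose CDKN2A, an inhibitor of those kinases that acts upstream of RB1. The same interval holds, several genes away from RB1, the region of DLEU1 and DLEU2, noncoding genes first described as deleted in lymphocytic leukaemia. DLEU2 is the host transcript of the microRNAs miR-15a and miR-16-1, which repress cell cycle genes and BCL2. Most other members are unrelated in function and share only their neighbourhood.

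The mature microRNAs of DLEU2 are shown because they are the best-known products of this interval, although neither was measured here. They are from RefSeq, assembly GRCh38.p14, on the minus strand, with the seed, bases 2 to 8, in capitals. The 2 sequences have the same seed, AGCAGCA.
hsa-miR-15a-5p, chr13:50049167-50049188: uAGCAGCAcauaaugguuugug
hsa-miR-16-5p, chr13:50049027-50049048: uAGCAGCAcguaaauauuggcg

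RefSeq promoter windows, from 250 bases before to 50 bases after a transcription start, were found for 41 of the 47 members, and these had 58 windows. The windows below belong to CDADC1 and KPNA3, which changed in hypoxia, and to BORA and PIBF1, which start beside another member that is read the opposite way. Capitals mark the letters ACGTG and GCGTG, the core bound by hypoxia-inducible factors, the E2F motifs TTTCCCGC and TTTGGCGC, and TTTGAA, the cell cycle homology region motif, each searched on both strands. In the KPNA3 window the last capitals, CACGTG, read as ACGTG on either strand and so count as overlapping matches, which made 3 matches in all.
CDADC1, chr13:49247675-49247974, plus strand: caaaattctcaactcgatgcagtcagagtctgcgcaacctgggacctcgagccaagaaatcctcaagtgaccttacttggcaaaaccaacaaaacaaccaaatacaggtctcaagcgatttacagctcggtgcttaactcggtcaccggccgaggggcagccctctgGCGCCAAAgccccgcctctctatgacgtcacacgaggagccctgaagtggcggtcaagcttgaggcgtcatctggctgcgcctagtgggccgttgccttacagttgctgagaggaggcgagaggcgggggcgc
KPNA3, chr13:49792633-49792932, minus strand: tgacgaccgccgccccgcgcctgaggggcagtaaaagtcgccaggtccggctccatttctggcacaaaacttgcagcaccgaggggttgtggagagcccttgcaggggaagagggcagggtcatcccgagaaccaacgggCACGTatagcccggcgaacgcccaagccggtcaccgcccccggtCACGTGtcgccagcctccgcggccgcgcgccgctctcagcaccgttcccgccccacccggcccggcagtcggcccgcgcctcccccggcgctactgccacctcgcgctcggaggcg
BORA, chr13:72727673-72727972, plus strand: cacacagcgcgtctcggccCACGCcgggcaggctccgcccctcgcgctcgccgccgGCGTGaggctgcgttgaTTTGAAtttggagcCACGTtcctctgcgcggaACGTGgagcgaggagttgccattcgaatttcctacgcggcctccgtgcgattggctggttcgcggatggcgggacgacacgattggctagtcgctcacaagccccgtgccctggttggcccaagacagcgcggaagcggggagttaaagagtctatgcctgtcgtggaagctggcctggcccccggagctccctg
PIBF1, chr13:72781883-72782182, plus strand: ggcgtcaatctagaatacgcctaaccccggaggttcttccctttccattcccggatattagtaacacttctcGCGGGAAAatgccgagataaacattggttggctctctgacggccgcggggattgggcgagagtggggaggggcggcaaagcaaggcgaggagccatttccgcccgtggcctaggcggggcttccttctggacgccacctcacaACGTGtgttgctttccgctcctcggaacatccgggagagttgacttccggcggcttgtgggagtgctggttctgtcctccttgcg

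The CDADC1 window held 1 TTTGGCGC and the PIBF1 window 1 TTTCCCGC and 1 ACGTG. The BORA window held 2 ACGTG, 2 GCGTG and 1 TTTGAA. The letters ACGTG stood in 32.8% of the members' windows and in 21.4% of all 35116 windows of the table, and ACGTG or GCGTG in 72.4% against 48.4%. TTTGAA stood in 12.1% against 15.2%. TTTCCCGC stood in 2 member windows, which is 3.45% against 1.63%, and TTTGGCGC in 1, which is 1.72% against 0.652%. The PCDH17 window, of the member that fell most in FG in hypoxia, held none of these letters. MZT1 and BORA are transcribed away from each other from starts 294 bases apart, so that their windows shared 207 bases. DIS3 and PIBF1 start 233 bases apart in the same arrangement, and their windows shared 268 bases. The 2 windows with TTTCCCGC are those of DIS3 and PIBF1, and the site is the same one, counted in each. Matches in shared bases count in each window for the other motifs too. These matches describe letters in a window and are no evidence of binding.

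Values are the log2 of the deposited intensities, and differences are log2 differences, so that -1 is a fall to 50% of the intensity. The fold of a difference is given where it helps. A gene was called near background when its mean over the 12 arrays lay below 5.27, the 90th percentile of 82 olfactory receptor genes, which these cells should not express. By that rule 36 of the 43 measured members were above background, and CYSLTR2, ARL11, DLEU7, PCDH8, OLFM4, KLHL1 and DACH1 were near it. Over all genes, 34.2% were near background. Arrays of the same group correlated at 0.974 to 0.996. All 8 epithelial markers, KRT8, KRT18, KRT19, EPCAM, CDH1, KRT7, CLDN4 and MUC1, were above background, with list means of 10.6 to 11.3. Of the markers of other cell types, 4 of 5 leukocyte, 3 of 5 fibroblast, 2 of 4 endothelial and 4 of 5 acinar and endocrine genes were near background, among them PTPRC, CD14, DCN, LUM, CDH5, KDR, CPA1 and INS. Those above it were CD3E (mean 5.81), COL1A1 (9.72), COL1A2 (5.52), PECAM1 (7.35), TEK (6.22) and CELA3A (5.37). The list means per array were 4.53 to 4.73 for leukocytes, 5.52 to 6.17 for fibroblasts, 4.75 to 5.29 for endothelium and 3.96 to 4.08 for acinar and endocrine pancreas. Between the lines in hypoxia, COL1A1 differed by -1.43 ± 0.36 (limma, adjusted p = 0.02) and PECAM1 by 0.98 ± 0.208 (0.0087), and in normoxia by -0.98 ± 0.36 (0.124) and 0.68 ± 0.208 (0.0648). Their part in the members' values was not tested. In earlier results replicate 1 of both normoxia groups and replicate 3 of the L3.6pl hypoxia group stood apart from their groups, and the counts without these 3 arrays are given. The labels do not say whether replicates were separate cultures, so p-values measure only the spread between these arrays.

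Most expressed genes of the block read lower in L3.6pl than in FG, usually by less than 2-fold, in normoxia and in hypoxia alike. The median difference over the 43 measured members was -0.56 in normoxia and -0.66 in hypoxia, while the median over all genes was 0.02 in both states. Among the 36 members above background it was -0.65 and -0.70, with 33 and 32 genes below 0. Of all genes above background, 45.3% and 44.8% were below 0. On chromosome 13 outside the interval, 72.5% and 71.3% of the genes above background were. Among the 7 members near background the median difference was 0.02 and -0.03. Since the members were chosen by these values, their size is no evidence in itself. In RNA of a whole culture, fewer cells that express a gene and less RNA per cell cannot be told apart.

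FG and L3.6pl arrays of the same replicate number deviated together within an oxygen state, so each number was read as a pair. L3.6pl was lower in 6 of 6 pairs for 28 members, against 13.5% of all genes, and higher in 6 of 6 for 3 members, PCDH8, PCDH9 and SETDB2, against 18.5% of all genes. Among genes above background the count was 27 of 36, with 17.2% of all such genes. All L3.6pl arrays lay below all FG arrays for 25 members in normoxia, against 13.1% of all genes, and for 26 in hypoxia, against 13.9%. In both states together this held for 20 members, against 6.61%. All L3.6pl arrays lay above all FG arrays in both states for 2 members, PCDH8 and PCDH9, against 8.95%. A fall to 50% or less was less common. In normoxia it was reached by 8 members, LPAR6, RCBTB2, PCDH17, TBC1D4, KLF12, VPS36, TDRD3 and ITM2B, against 2.74% of all genes. In hypoxia it was reached by 5, PCDH17, TBC1D4, RCBTB2, LPAR6 and DLEU1, against 3.33%. L3.6pl was at least 2-fold higher for PCDH8 and PCDH9 in normoxia, against 2.32% of all genes, and for PCDH9 in hypoxia, against 4.06%. The usual member therefore differed by less than 2-fold, and a few members differed by far more.

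**Figure D1:**
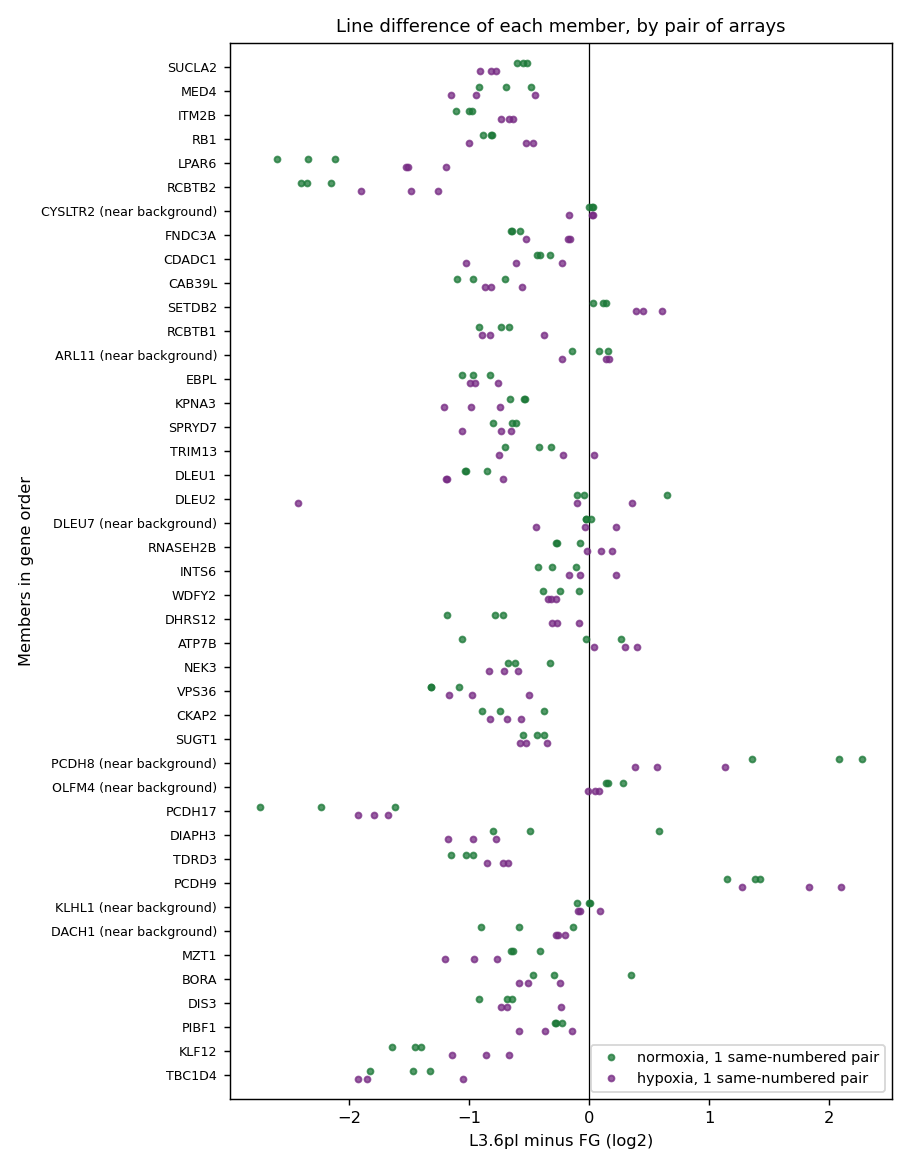
Difference L3.6pl minus FG (log2) of each of the 43 measured members in gene order, with 1 point for each same-numbered pair of arrays, 3 in normoxia (green) and 3 in hypoxia (purple). All 6 points lie left of 0 for 28 members and right of 0 for PCDH8, PCDH9 and SETDB2.

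The lower readings did not stop at either end of the block. In runs of 15 consecutive genes above background, the median difference was -0.01 in normoxia and 0.21 in hypoxia from PDS5B to COG6, which lie nearer the centromere. From COG6 to EPSTI1 it was -0.53 and -0.33. From RB1 to RNASEH2B, a run made up of members alone, it was -0.68 and -0.72. Runs beyond the block, without members, were as low in normoxia: from NAXD to GRTP1 the median was -0.75 in normoxia and -0.48 in hypoxia. The last run, from F7 to CHAMP1 near the end of the chromosome, still had -0.49 and -0.35. Genes above background beyond the block on the side away from the centromere, leaving out the nearest 15 measured genes, had medians of -0.50 and -0.35 (69 genes). Those on the other side had -0.12 and -0.18 (95 genes). Over its 219 genes above background, chromosome 13 had the lowest median of the 22 autosomes, -0.36 in normoxia and -0.30 in hypoxia, and 44.3% of those genes were lower in 6 of 6 pairs. These genes include the members, which were chosen by this difference. The 178 genes above background outside the interval had medians of -0.29 and -0.27, and 38.2% of them were lower in 6 of 6 pairs. Chromosome 8 came next with -0.24 and -0.18, and chromosome 21 was highest with 0.33 and 0.23.

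The nearest measured gene before SUCLA2 was HTR2A, near background, with -0.10 and -0.19. Next to it, ESD, which encodes esterase D, differed by -0.47 and -0.43, and LRCH1 by -0.37 and 0.26. After TBC1D4, COMMD6 differed by -0.42 and -0.33, and UCHL3, a ubiquitin hydrolase, by -0.64 and -0.76. LMO7, an actin-binding protein of cell junctions, went the other way, with 0.93 and 0.58. Within the interval, 30 further measured genes were not on the list, and 25 of them were near background. The 5 above background had medians of -0.01 and -0.16. Among these, INTS6-AS1 differed by -0.64 and -0.54, and KLF5, a transcription factor of epithelial cells, by 0.01 in normoxia and -0.52 in hypoxia. FAM124A and the olfactory receptor pseudogenes OR7E156P and OR7E104P make up the rest. So expressed genes within the interval were not lower without exception.

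**Figure D2:**
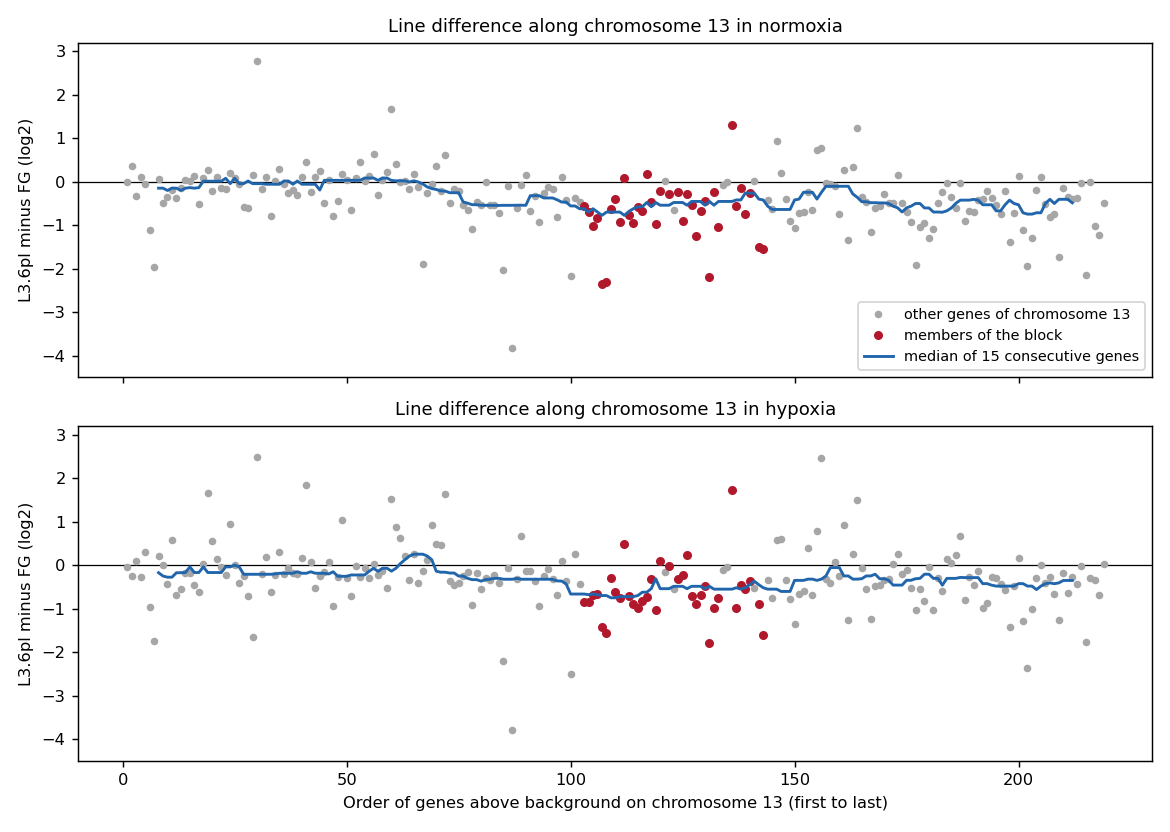
Difference L3.6pl minus FG (log2) of the 219 chromosome 13 genes above background, in gene order from the first to the last, in normoxia (top) and hypoxia (bottom); red points are the 36 members above background and the line is the median of 15 consecutive genes. The line runs near 0 over the first part of the chromosome and reads -0.68 and -0.72 from RB1 to RNASEH2B. It stays mostly below 0 to the end, with -0.75 and -0.48 from NAXD to GRTP1, beyond the block.

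RB1 itself was lower in L3.6pl without overlap. Its log2 values were 10.13, 10.19 and 10.12 in FG normoxia, 10.18, 9.92 and 9.76 in FG hypoxia, 9.31, 9.39 and 9.24 in L3.6pl normoxia, and 9.18, 9.45 and 9.24 in L3.6pl hypoxia. The highest L3.6pl array lay below the lowest FG array. The group means were 10.15 ± 0.039, 9.95 ± 0.212, 9.31 ± 0.0752 and 9.29 ± 0.14 (SD, n = 3 each). That is a difference of -0.84 in normoxia and -0.66 in hypoxia, or 1.79-fold and 1.58-fold lower in L3.6pl. Its other probe set, also above background, differed by -0.54 and -1.02. RB1 transcript therefore remained well above background in both lines.

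Members with roles in the cell cycle, mitosis or DNA were mostly lower too. The 10 genes of this group, RB1 included and all above background, had medians of -0.36 in normoxia and -0.57 in hypoxia, and 6 of them, again with RB1, were lower in 6 of 6 pairs. CKAP2, a microtubule-associated protein of the mitotic spindle, differed by -0.67 and -0.69, and NEK3, a kinase of the NIMA family, by -0.54 and -0.71. MZT1, a partner of the gamma-tubulin ring complex, differed by -0.56 and -0.98. SUGT1, a co-chaperone needed at the kinetochore, differed by -0.45 and -0.48, and PIBF1, a protein of centriolar satellites, by -0.26 and -0.37. All of these were lower in every pair. BORA, which helps to activate the mitotic kinase Aurora A, and DIAPH3, a formin that nucleates actin, were lower in 5 of 6 pairs. The exception for both was normoxia pair 1, where FG replicate 1 read 7.42 for BORA against 9.00 and 9.00, and 7.02 for DIAPH3 against 8.71 and 8.87. On that array the E2F target genes described further on were also low.

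SETDB2 and RNASEH2B stood out in this group. SETDB2, a protein of the histone methyltransferase family, read 6.85, 6.66 and 6.78 in FG normoxia and 6.88, 6.80 and 6.89 in L3.6pl normoxia. In hypoxia it read 6.20, 5.88 and 6.28 in FG and 6.59, 6.33 and 6.89 in L3.6pl. L3.6pl was thus higher by 0.10 and 0.48, and with the mean of all its probe sets the normoxia difference was -0.17. RNASEH2B, a subunit of the enzyme that removes ribonucleotides from DNA, read 7.29, 7.41 and 6.96 in FG normoxia and 7.01, 7.14 and 6.88 in L3.6pl normoxia. Its hypoxia arrays read 6.76, 6.71 and 6.38 in FG and 6.74, 6.81 and 6.57 in L3.6pl. The lines overlapped in both states, with differences of -0.21 and 0.09. Another RNASEH2B probe set, with a mean of 6.03, differed by -1.86 and -1.68, and the hypoxia difference was -0.49 over the mean of all probe sets, -0.014 after cyclic loess normalization and -0.025 without FG hypoxia replicate 3. Its direction between the lines depended on which probe set was read.

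Members that act on transcription, RNA or nuclear import had medians of -0.72 and -0.80 over the 8 genes above background. KLF12, a Krüppel-like transcriptional repressor, read 8.09, 7.59 and 7.61 in FG normoxia and 6.64, 5.95 and 6.22 in L3.6pl normoxia. In hypoxia it read 7.33, 7.84 and 7.70 in FG against 6.47, 6.69 and 7.03 in L3.6pl. Neither state overlapped, the differences were -1.50 and -0.89, and all 8 KLF12 probe sets were lower in both states. The noncoding DLEU1 read 10.11, 10.15 and 10.28 in FG normoxia and 9.08, 9.12 and 9.43 in L3.6pl normoxia. Its hypoxia arrays read 9.79, 9.81 and 10.41 in FG and 9.07, 8.62 and 9.23 in L3.6pl. DLEU1 thus fell to near 50% in L3.6pl in both states, with -0.97 and -1.03.

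KPNA3, an importin alpha that carries proteins into the nucleus, read 9.22, 9.41 and 9.44 in FG normoxia and 8.68, 8.88 and 8.78 in L3.6pl normoxia. In hypoxia it read 9.20, 9.05 and 9.00 in FG and 7.99, 8.07 and 8.26 in L3.6pl. The lines did not overlap, and the gap was -0.58 in normoxia and -0.98 in hypoxia. The mediator subunit MED4 differed by -0.70 and -0.85, TDRD3, a reader of methylated arginine, by -1.05 and -0.75, and DIS3, a ribonuclease of the exosome, by -0.75 and -0.55. INTS6, a subunit of the integrator complex, differed by -0.28 and -0.01. DLEU2 differed by 0.17 and -0.72, with a wide spread. L3.6pl hypoxia arrays read 7.10, 7.75 and 4.45 for it, so that its lower mean there rested on replicate 3, one of the arrays that stood apart. DACH1, a developmental transcription factor, was near background with -0.54 and -0.25.

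Among members of metabolism, trafficking and signalling, the 14 above background had medians of -0.73 and -0.72, and 12 were lower in 6 of 6 pairs. RCBTB2, a protein with RCC1 repeats and a BTB domain, differed most of them in normoxia, and TBC1D4 in hypoxia. RCBTB2 read 9.89, 9.73 and 9.67 in FG normoxia, 8.74, 8.74 and 9.23 in FG hypoxia, 7.74, 7.33 and 7.32 in L3.6pl normoxia, and 6.83, 7.26 and 7.98 in L3.6pl hypoxia. L3.6pl was 4.93-fold lower in normoxia and 2.93-fold lower in hypoxia, with no overlap. TBC1D4, a Rab GTPase-activating protein known for its part in GLUT4 traffic, read 8.24, 7.31 and 7.21 in FG normoxia and 7.50, 7.29 and 6.95 in FG hypoxia. In L3.6pl it read 6.41, 5.84 and 5.88 in normoxia and 5.57, 5.44 and 5.90 in hypoxia. The differences were -1.54 and -1.61, again with no overlap, and its second probe set gave -1.31 and -1.57.

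VPS36, a subunit of the ESCRT-II complex that sorts membrane proteins to lysosomes, read 9.80, 9.39 and 9.24 in FG normoxia and 8.48, 8.07 and 8.15 in L3.6pl normoxia. In hypoxia it read 8.18, 8.41 and 8.48 in FG and 7.02, 7.43 and 7.98 in L3.6pl. The differences were -1.24 and -0.88. SUCLA2, the first member and a subunit of succinyl-CoA synthetase in mitochondria, read 10.07, 10.27 and 10.62 in FG normoxia and 9.52, 9.75 and 10.02 in L3.6pl normoxia. Its hypoxia arrays read 10.38, 10.34 and 10.72 in FG and 9.56, 9.56 and 9.80 in L3.6pl. All its L3.6pl arrays lay below all FG arrays, with -0.56 and -0.84. CDADC1, a cytidine deaminase domain protein, differed by -0.39 and -0.62.

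The remaining genes of this role moved within a narrower band. EBPL, a relative of the sterol isomerase EBP, differed by -0.95 and -0.90, and CAB39L, a scaffold of the kinase LKB1, by -0.93 and -0.75. RCBTB1, a relative of RCBTB2, differed by -0.77 and -0.70, SPRYD7 by -0.68 and -0.81, and FNDC3A by -0.62 and -0.29. All 5 were lower in every pair. TRIM13, a ubiquitin ligase of the endoplasmic reticulum, differed by -0.48 and -0.31 and was lower in 5 of 6 pairs, and WDFY2, a protein of early endosomes, differed by -0.24 and -0.31. DHRS12, a dehydrogenase family member, differed by -0.89 and -0.22, but its other probe sets above background gave 0.04 and 0.23, and -0.05 and 0.07. ATP7B, a copper-exporting ATPase, was lower in 2 of 6 pairs only, with -0.27 and 0.25, and FG normoxia replicate 1 read 7.26 against 5.43 and 5.73. ARL11, near background, differed by 0.03 in each state.

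Surface and secreted proteins held the largest differences in both directions. LPAR6, a receptor for lysophosphatidic acid encoded within an intron of RB1, read 10.70, 10.66 and 10.59 in FG normoxia and 9.19, 9.25 and 9.78 in FG hypoxia. In L3.6pl it read 8.57, 8.07 and 8.25 in normoxia and 7.68, 7.72 and 8.58 in hypoxia. L3.6pl was 5.11-fold lower in normoxia and 2.66-fold lower in hypoxia, with no overlap. LPAR6 thus differed by -2.35 and -1.41, where its host gene RB1 differed by -0.84 and -0.66. PCDH17, a protocadherin that is often methylated in carcinomas, read 8.97, 7.83 and 8.49 in FG normoxia, 7.03, 7.20 and 7.12 in FG hypoxia, 6.22, 6.22 and 6.26 in L3.6pl normoxia, and 5.35, 5.41 and 5.20 in L3.6pl hypoxia. It was 4.58-fold and 3.47-fold lower in L3.6pl, and both its other probe sets above background were lower too.

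PCDH9, another protocadherin, went the opposite way. It read 4.86, 5.24 and 5.56 in FG normoxia and 5.23, 5.44 and 5.67 in FG hypoxia, which is around background. In L3.6pl it read 6.24, 6.67 and 6.70 in normoxia and 7.33, 7.27 and 6.94 in hypoxia, all above the FG arrays. The differences were 1.32 and 1.73. PCDH8 was near background on the whole, with 2.63, 2.63 and 2.76 in FG normoxia and 2.48, 2.51 and 2.71 in FG hypoxia. It read 4.71, 3.99 and 5.03 in L3.6pl normoxia and 3.05, 2.90 and 3.85 in L3.6pl hypoxia, so all of its arrays lay below the background level of 5.27. ITM2B, a transmembrane protein cleaved at the cell surface, differed by -1.03 and -0.68. OLFM4, a secreted glycoprotein of intestinal stem cells, CYSLTR2, a leukotriene receptor, and KLHL1 were near background, with differences from -0.04 to 0.19.

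**Figure D3:**
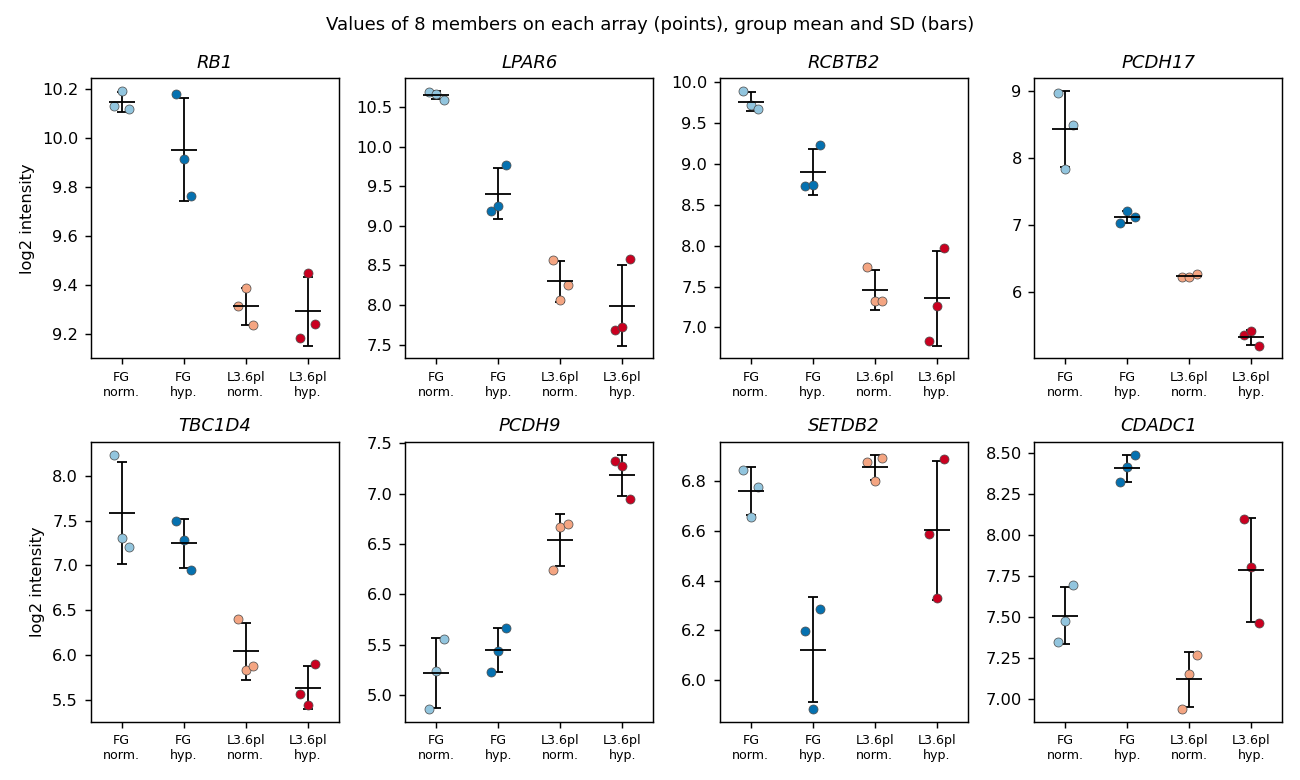
Log2 intensity of RB1, LPAR6, RCBTB2, PCDH17, TBC1D4, PCDH9, SETDB2 and CDADC1 on each array (points), with group mean and SD (bars), 3 arrays per group and an axis of its own for each gene. FG arrays lie above L3.6pl arrays for RB1, LPAR6, RCBTB2, PCDH17 and TBC1D4 and below them for PCDH9.

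Where a member had more than 1 probe set above background, the probe sets mostly told the same story. The 43 members had 120 probe sets, of which 72 were above background, and 60 of these 72 were lower in L3.6pl in both states. These include the probe sets read for the members, which were chosen by this difference. The count is therefore a description and no evidence in itself. Of 22 members with more than 1 such probe set, 18 had all of them on the same side of 0 in each state. The other members were CDADC1, DHRS12, RNASEH2B and SETDB2.

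A minority of members passed the test for a change in hypoxia, as of all genes, and RB1 did not pass. In FG, 6 of 43 members passed the limma test at an adjusted p below 0.05 over all genes, where 10.7% of all genes did. Of these, 1 rose, against 4.24% of all genes, and 5 fell, against 6.47%. In L3.6pl, 4 members passed, where 6.86% of all genes did, 1 of them higher, against 3.89%, and 3 lower, against 2.97%. The median change of the members was -0.15 in FG and -0.11 in L3.6pl, and that of all genes -0.03 and -0.02. At an unadjusted p below 0.05 there were 13 members in FG, against 23.3% of all genes, and 9 in L3.6pl, against 21.3%. All hypoxia arrays lay below all normoxia arrays for 12 members in FG, against 17.1% of all genes, and for 10 in L3.6pl, against 12.8%. They lay above them for 1 in FG, against 10.9%, and for 4 in L3.6pl, against 11.5%. With both directions counted, the shares that passed are near those of all genes. By direction the members had 5 falls and 1 rise in FG and 3 falls and 1 rise in L3.6pl, which are few calls. Among genes above background, 5 of 36 members fell in FG and 2 in L3.6pl, against 1202 and 541 of 13010 genes. In each line 1 of these members rose, against 780 genes in FG and 725 in L3.6pl. Whether the members' split by direction differs from that of all genes was not tested. RB1 changed by -0.19 ± 0.116 in FG (limma, adjusted p = 0.368) and by -0.02 ± 0.116 in L3.6pl (adjusted p = 0.952), where the error is limma's standard error and each group has 3 arrays. Neither passed the test.

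PCDH17 and CDADC1 passed in both lines. PCDH17 fell by 1.31 ± 0.218 in FG (limma, adjusted p = 0.00392) and by 0.91 ± 0.218 in L3.6pl (adjusted p = 0.0305), and hypoxia arrays lay below normoxia arrays without overlap in each line. CDADC1 rose by 0.90 ± 0.159 in FG (adjusted p = 0.00532) and by 0.67 ± 0.159 in L3.6pl (adjusted p = 0.0299). Its log2 values went from 7.35, 7.48 and 7.70 to 8.32, 8.42 and 8.49 in FG and from 6.94, 7.15 and 7.27 to 8.10, 7.81 and 7.46 in L3.6pl. Every hypoxia array of CDADC1 thus lay above every normoxia array of its line. The L3.6pl calls were weak. Without any 1 of the 6 L3.6pl arrays the PCDH17 call was lost: the limma adjusted p was 0.0727 without normoxia replicate 1, 0.104 without normoxia replicate 2, 0.0948 without normoxia replicate 3, and 0.0785, 0.0823 and 0.0528 without hypoxia replicates 1, 2 and 3. The CDADC1 call was lost without normoxia replicates 1, 2 or 3 (limma adjusted p = 0.0920, 0.0967 and 0.0540) and without hypoxia replicates 1 or 2 (0.0945 and 0.102). With the mean of all its probe sets CDADC1 rose by only 0.31 in L3.6pl and did not pass (limma adjusted p = 0.128).

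In FG, LPAR6 fell by 1.25 ± 0.241 (limma, adjusted p = 0.00853), and VPS36 fell by 1.11 ± 0.23 (adjusted p = 0.0115). All 3 hypoxia arrays lay below all 3 normoxia arrays for each of them. VPS36 did not pass over the mean of its probe sets (-0.34, limma adjusted p = 0.164), and its only other probe set was near background. SETDB2 fell by 0.64 ± 0.146 (limma, adjusted p = 0.0189), a call lost without FG hypoxia replicate 2 (adjusted p = 0.0832) or FG normoxia replicate 3 (0.0544). RNASEH2B fell by 0.60 ± 0.143 (limma, adjusted p = 0.0225). That call was lost without FG hypoxia replicate 2 (adjusted p = 0.0552) or 3 (0.0704) and without FG normoxia replicate 1 (0.0551) or 2 (0.0874). It was also lost after cyclic loess normalization (adjusted p = 0.0887), with each array centred on its median (0.0853), and over the mean of its probe sets (0.0592). In L3.6pl the same genes changed by -0.30 (LPAR6), -0.76 (VPS36), -0.25 (SETDB2) and -0.30 (RNASEH2B), and none of these passed the limma test.

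In L3.6pl, KPNA3 fell by 0.68 ± 0.106 (limma, adjusted p = 0.00443), with hypoxia arrays of 7.99, 8.07 and 8.26 below normoxia arrays of 8.68, 8.88 and 8.78. Over the mean of its probe sets it fell by 0.59 (limma, adjusted p = 0.0565). PCDH8 fell by 1.31 ± 0.275 (limma, adjusted p = 0.0169), but its values lay below the background level throughout. That call was lost without L3.6pl hypoxia replicate 1 (adjusted p = 0.0649) or 2 (0.0786) and without L3.6pl normoxia replicate 1 (0.0566) or 3 (0.0672). In FG, KPNA3 changed by -0.27 and PCDH8 by -0.10, without passing. RCBTB2 changed by -0.86 ± 0.255 in FG (limma, adjusted p = 0.0564), TRIM13 by 0.56 ± 0.152 in L3.6pl (0.0541), VPS36 by -0.76 ± 0.23 in L3.6pl (0.0787) and PCDH9 by 0.64 ± 0.198 in L3.6pl (0.082). These lay just outside the threshold.

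The number of members that passed depended on which arrays entered the fit. Without the 3 arrays that stood apart, 10 members passed in FG, with RCBTB2, KPNA3, CKAP2 and BORA added, where 19.6% of all genes passed. In L3.6pl 9 passed, with VPS36, CKAP2, DIAPH3, PCDH9 and BORA added, where 21.1% of all genes passed. Of the added genes, CKAP2, BORA and DIAPH3 belong to the members with roles in the cell cycle, mitosis or DNA, and RCBTB2, KPNA3, VPS36 and PCDH9 do not. In L3.6pl, where 6.86% of all genes passed on all arrays, 1 member passed without hypoxia replicate 1 (4.31% of all genes), hypoxia replicate 2 (2.88%), normoxia replicate 1 (4.69%) or normoxia replicate 3 (3.71%), and 2 without normoxia replicate 2 (2.57%).

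**Figure D4:**
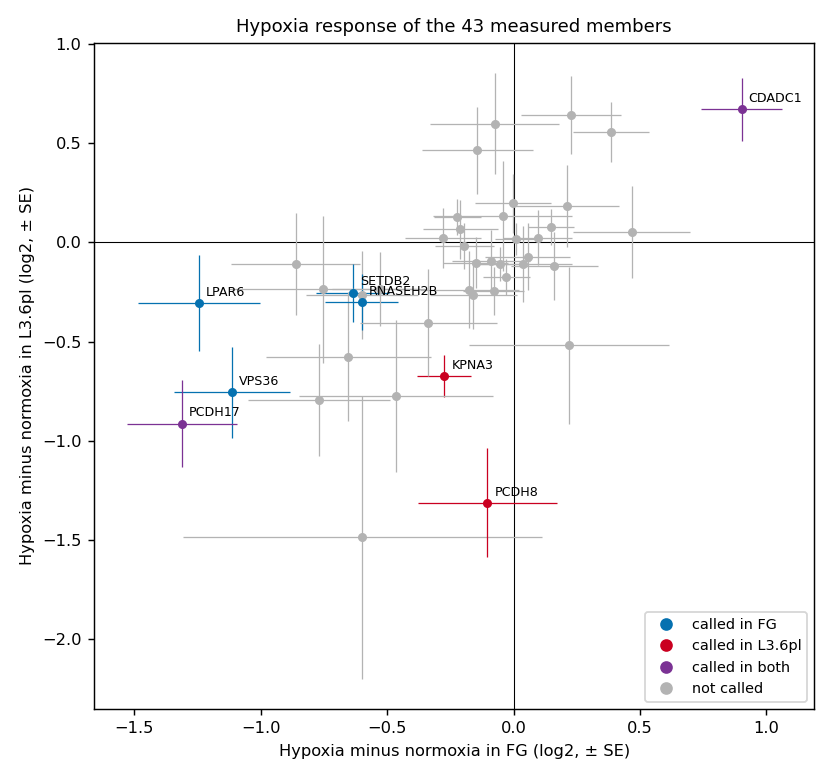
Change in hypoxia (log2, hypoxia minus normoxia) of the 43 measured members in FG (x axis) and in L3.6pl (y axis), with limma standard errors; colours mark members that passed at an adjusted p below 0.05 over all genes. PCDH17 (-1.31 and -0.91) and CDADC1 (0.90 and 0.67) passed in both lines, and most members lie near 0 on both axes.

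Whether the lines responded differently to hypoxia was tested as an interaction, the change in L3.6pl minus that in FG. The main fit leaves out the pairing of FG with L3.6pl arrays. In that fit none of the 43 members passed with limma, where 0.0253% of all genes did. An unadjusted p below 0.05 was reached by 4 members, where 7.22% of all genes reached it. LPAR6 had an interaction of 0.94 ± 0.34 (limma, adjusted p = 0.521), PCDH8 one of -1.21 ± 0.388 (0.443), and PCDH17 one of 0.40 ± 0.308 (0.868). With same-numbered FG and L3.6pl arrays of an oxygen state as a replicate block, an alternative added after the data were seen, LPAR6 passed (0.94 ± 0.163, limma adjusted p = 0.0267), as did 3.55% of all genes. So a gene that passed in FG alone, such as LPAR6, was not shown to respond differently in L3.6pl without that block. 

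The genes through which the RB1 protein works were read beside it. Of a list of 29 RB pathway genes 28 were measured, and of 31 E2F targets 30. Comparisons between the lines are from the main fit, which leaves out the pairing of the arrays, unless the replicate block is named. In normoxia, 8 RB pathway genes differed between the lines by limma, 5 higher and 3 lower in L3.6pl, where 5.16% and 5.54% of all genes did. The list's median was 0.23, against 0.02 over all genes. CDK6, a kinase that phosphorylates the RB1 protein, was higher in L3.6pl by 0.74 ± 0.119 (limma, adjusted p = 0.00253), and TFDP2, a partner of E2F factors, by 0.98 ± 0.253 (0.0318). CDKN1B, which encodes the inhibitor p27, differed by -0.70 ± 0.142 (limma, adjusted p = 0.0101), and E2F5, a repressive E2F factor, by -0.78 ± 0.166 (0.0127). CDK4 and HDAC1 did not pass, with 0.35 ± 0.201 (0.369) and 0.21 ± 0.167 (0.545). CDKN2A was expressed in both lines, with a mean of 11.1. It was higher in L3.6pl by 0.35 ± 0.0928 in normoxia (limma, adjusted p = 0.035) and by 0.31 ± 0.0928 in hypoxia (0.0415).

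In hypoxia, 6 RB pathway genes were higher in L3.6pl and 1 lower, where 10.0% and 6.72% of all genes were. CDK6 differed by 0.86 ± 0.119 (limma, adjusted p = 0.000668), TFDP2 by 1.05 ± 0.253 (0.016), and RBL2, the RB1 relative p130, by 0.80 ± 0.186 (0.0133). CDKN1C, the inhibitor p57, was the gene that read lower, with -1.55 ± 0.289 (0.00395). CDK4 and TFDP1 did not pass, with 0.48 ± 0.201 (0.146) and -0.42 ± 0.168 (0.12). No E2F target passed between the lines in normoxia by limma, with 6 at an unadjusted p below 0.05 and 22.1% of all genes, and 9 passed with the replicate block within an oxygen state. RRM2 and PCNA, the E2F targets with the highest means, differed by 1.01 ± 0.613 (adjusted p = 0.4) and -0.02 ± 0.504 (0.99). In hypoxia, 2 were lower in L3.6pl, SLBP, which binds histone transcripts, with means of 9.76 ± 0.144 in FG and 8.76 ± 0.234 in L3.6pl (SD, n = 3 each, limma adjusted p = 0.00454), and EZH2, a histone methyltransferase, with -0.87 ± 0.232 (0.0255). With that block the RB pathway count was 14 in normoxia and 13 in hypoxia, and the E2F target count in hypoxia was 4. The share of all genes that passed between the lines with that block is not given, so these counts cannot be set against all genes. Without FG hypoxia replicate 1 or 2 the hypoxia count of the RB pathway was 3 or 2. In normoxia it was 4 and 3 without FG normoxia replicates 1 and 2, 5, 3 and 2 without L3.6pl normoxia replicates 1, 2 and 3, and 5 without FG hypoxia replicate 2.

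Genes of the RB pathway passed in hypoxia where RB1 did not. In FG, 2 of the 28 RB pathway genes rose and 8 fell by limma, where 4.24% and 6.47% of all genes did, with a list median of -0.36 against -0.03 over all genes. CDK4 fell by 1.08 ± 0.201 (limma, adjusted p = 0.00719), TFDP1, the main partner of E2F factors and itself on chromosome 13, by 0.85 ± 0.168 (0.00949), E2F5 by 1.02 ± 0.166 (0.00361) and E2F6 by 0.80 ± 0.173 (0.0149). CDKN2A and CDK6 did not pass, with -0.04 ± 0.0928 (0.87) and -0.18 ± 0.119 (0.433). In L3.6pl, 1 rose and 4 fell, where 3.89% and 2.97% of all genes did, with a median of -0.30 against -0.02. CDKN1B rose by 0.86 ± 0.142 (limma, adjusted p = 0.00581), while TFDP1 fell by 0.91 ± 0.168 (0.00995), CDK4 by 0.95 ± 0.201 (0.0178) and SKP2, which targets p27 for degradation, by 1.15 ± 0.255 (0.0223). CDKN2A and HDAC1 did not pass, with -0.08 ± 0.0928 (0.723) and -0.23 ± 0.167 (0.491). CDK4 and TFDP1 thus fell in both lines.

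E2F targets differed among arrays of the same group. In FG none of the 30 passed in hypoxia by limma, where 6.47% of all genes fell, and 5 had an unadjusted p below 0.05, where 23.3% of all genes did. In L3.6pl 6 fell, where 2.97% of all genes did. The list medians were -0.38 in FG and -1.17 in L3.6pl. In L3.6pl, POLA1, a subunit of DNA polymerase alpha, fell by 1.43 ± 0.255 (limma, adjusted p = 0.00807), the replication helicase subunit MCM3 by 1.65 ± 0.402 (0.0343), SLBP by 0.78 ± 0.191 (0.0348) and UHRF1 by 1.30 ± 0.343 (0.0474). PCNA and RRM2 did not pass there, with -1.74 ± 0.504 (0.0664) and -0.98 ± 0.613 (0.415), nor in FG, with -1.49 ± 0.504 (0.0914) and 0.02 ± 0.613 (0.991). The mean of the 30 targets was 7.80 on FG normoxia replicate 1 but 9.31 and 9.51 on the other FG normoxia arrays, and 8.80, 8.21 and 8.05 on the FG hypoxia arrays. In L3.6pl it was 8.82, 9.52 and 9.55 in normoxia and 8.26, 7.64 and 8.48 in hypoxia. Without the 3 arrays that stood apart, 17 targets passed in FG and 29 in L3.6pl, where 19.6% and 21.1% of all genes did. Without FG normoxia replicate 1 alone, 9 passed in FG and 16 in L3.6pl, where 10.5% and 9.35% of all genes did. The part of these arrays in the members' own hypoxia values was not tested beyond the counts given without them.

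The RB pathway counts moved with the arrays as well, while the share of all genes that passed ran from 5.20% to 14.7% in FG and from 2.57% to 12.3% in L3.6pl with 1 array left out. In FG the count of 10 became 5, 3 and 6 without hypoxia replicates 1, 2 and 3, and 4 and 5 without normoxia replicates 2 and 3. In L3.6pl the count of 5 became 3, 2 and 10 without hypoxia replicates 1, 2 and 3, 1 and 2 without normoxia replicates 2 and 3, and 8 without FG normoxia replicate 1. The 6 E2F targets of L3.6pl became 1 without hypoxia replicate 1 or 2, 3 without normoxia replicate 1, and 1 without normoxia replicate 2 or 3. They became 1, 2 and 3 without FG hypoxia replicate 2, FG normoxia replicate 2 and FG normoxia replicate 3. In FG, 1 target passed without FG hypoxia replicate 1 or L3.6pl hypoxia replicate 3. Between the lines, 1 passed in normoxia without FG normoxia replicate 1, and in hypoxia 1 in place of 2 without replicate 1 or 2 of FG hypoxia or replicate 2 or 3 of L3.6pl hypoxia. In the interaction none of the 28 RB pathway genes or 30 E2F targets passed by limma, with 2 and 1 at an unadjusted p below 0.05. With the replicate block within an oxygen state 3 RB pathway genes passed, where 3.55% of all genes did.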

How the data were processed

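Total RNA was read on 12 Affymetrix arrays of 54675 probe sets. The deposited values are intensities on a linear scale that the authors normalized with RMA, per the submitters' processing notes, which give no version. Their log2 was taken with no further normalization, since sorted values of any array differed from the mean sorted values by 0.0138 at the median and 0.145 at the most. Names came from the platform annotation. Of the probe sets outside 62 controls, 41091 gave exactly 1 gene, 1801 several and 11721 none. The probe set with the highest mean stood for each of 19775 genes. The number of arrays limits the precision. A model with 1 mean per group was fitted to all arrays with limma 3.58.1 in R 4.3.3 (8 residual and 2.72 prior degrees of freedom), with Benjamini-Hochberg adjustment over all genes, and tested on simulated data first. With 3 arrays a side, the smallest two-sided p of an exact test is 0.1. Every array's value is given for RB1, for the 8 members above background with the largest mean line difference, for up to 8 members that passed in hypoxia, and for the first and last member. From each pathway list, up to 4 genes that passed with the smallest adjusted p per comparison and the 2 brightest that did not pass are named. Other genes were chosen after their values were seen. The members and lists were chosen with earlier results of these data known. Gene order came from RefSeq's gene table, and no coordinates were taken from it.

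Same-numbered FG and L3.6pl arrays deviated together across genes (r of 0.53 to 0.73 in normoxia and 0.36 to 0.46 in hypoxia), so the numbers pair the lines within an oxygen state. Hypoxia and normoxia arrays of the same line and number did not (-0.22 to 0.26 in FG, -0.04 to 0.41 in L3.6pl).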

Additional observations from a re-analysis of the deposited data

How the results depend on the processing

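The alternatives were cyclic loess normalization, median centring, the mean of a gene's probe sets, a filter on dim genes, trend and robust moderation, an adjusted p below 0.01, the 75th percentile as background, a replicate block, leaving out each array, and leaving out the 3 arrays that stood apart. The cause of the changes below was not tested.

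Members that passed in hypoxia numbered 6 in FG, where 10.7% of all genes passed, and 10 without the 3 arrays apart (19.6%). They numbered 3 at an adjusted p below 0.01, and 4 to 7 with 1 array left out. In L3.6pl they numbered 4 (6.86% of all genes), 2 with the mean of probe sets (7.12%), and 9 without the 3 arrays apart (21.1%). There they numbered 1 at 0.01, and 1 to 5 with 1 array left out. No share of all genes is given at 0.01. No member passed in the interaction, and 1 did with the replicate block within an oxygen state, as did 3.55% of all genes.

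The labelled replicate number as a replicate block in the hypoxia fits gave 8 members in FG (RCBTB2 and CKAP2 added), where 15.1% of all genes passed. That block gave 6 in L3.6pl (TRIM13 and PCDH9 added), where 10.8% passed, and 0 in the interaction, where 0.0657% passed. Since these numbers did not pair hypoxia with normoxia arrays, that block is an alternative only.

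Pathway genes that passed, both lists together, numbered 10 in FG hypoxia (31 without the 3 arrays apart, 3 at 0.01, 3 to 23 with 1 array left out) and 11 in L3.6pl hypoxia (44, 3, and 2 to 24). Between the lines they numbered 8 in normoxia (23 with the replicate block within an oxygen state, 5 with trend and robust moderation, 1 at 0.01, 2 to 8 with 1 array left out) and 9 in hypoxia (17 with that block, 17 without the 3 arrays apart, 3 at 0.01, 3 to 12). The interaction count was 0, and 3 with that block, where 3.55% of all genes passed. No share of all genes is given for the comparisons between the lines with that block.

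The members' median line difference was -0.56 in normoxia (-0.50 with the mean of probe sets, -0.65 to -0.53 with 1 array left out) and -0.66 in hypoxia (-0.71 after cyclic loess, -0.72 with median centring, -0.50 with the mean of probe sets, -0.66 to -0.57 with 1 array left out). The 15 genes before the block had -0.10 in normoxia, and -0.12 with the mean of probe sets. The 7 of them above background had -0.42 in normoxia and -0.36 in hypoxia. Of the 15 genes after the block, the 7 above background had -0.42 and -0.35. The sign changed for SETDB2 in normoxia (-0.17 with the mean of probe sets) and for RNASEH2B in hypoxia (-0.014 after cyclic loess, -0.49 with the mean of probe sets, and -0.025 to 0.16 with 1 array left out, -0.025 being without FG hypoxia replicate 3).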
